A study of Mus musculus with 10 samples.

Results

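The genes described here encode the proteins of the cytosolic ribosome. They were chosen by symbol, as protein-coding mouse genes named Rpl or Rps with a number and at most 1 of the letters a, l or x, together with Rplp0, Rplp1, Rplp2 and Rpsa. Of 48709 genes in the count tables, 82 carried such a symbol and 80 of these were protein-coding, 31 of the small subunit and 49 of the large subunit. The remaining symbols, Rps4l and Rpl6l, are annotated as pseudogenes and held 97 to 144 and 0 to 2 counts per library. After the filter on low counts, 77 of the 80 genes were tested among 16884 genes, 31 of the small subunit and 46 of the large subunit.

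A ribosome joins a small subunit, which reads the messenger RNA, with a large subunit, which forms the peptide bond, and nearly every ribosomal protein is present once per ribosome. Their messenger RNAs are long-lived, start with a run of pyrimidines (the terminal oligopyrimidine motif) and are translated or stored together under the control of the mTOR kinase and the RNA-binding protein Larp1. In neurons some of them are carried into axons and dendrites, and several ribosomal proteins have duties outside the ribosome, among them Rpl5 and Rpl11, which bind the p53 regulator Mdm2 when ribosome assembly fails.

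Primary mouse hippocampal neurons between days 10 and 12 in vitro were given lipid nanoparticles for 48 h. The particles held an anti-miR against miR-409-5p (anti-miR-409-5p, n = 4 libraries), an anti-miR against miR-501-3p (anti-miR-501-3p, n = 4) or scramble RNA (control, n = 2), and nothing besides these loads separates the groups in the labels. Polyadenylated RNA was read as 50 bp single-end reads, with 22254788 to 32096808 counts assigned to genes per library. No label states whether replicate libraries stem from different cultures, so p-values reflect the variation among these 10 libraries alone. In cultures read in bulk fewer cells and less RNA per cell cannot be told apart.

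The mature microRNAs that the inhibitors were directed at are shown because their seed (bases 2 to 8, in capitals) gives the letters to look for in the ribosomal protein transcripts. The sequences are from RefSeq, GRCm38.p6, for chr12:109743172-109743194 on the plus strand and chrX:7241270-7241291 on the minus strand.
mmu-miR-409-5p: aGGUUACCcgagcaacuuugcau
mmu-miR-501-3p: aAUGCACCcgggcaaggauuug
The 7 letters complementary to the seed of miR-409-5p (GGTAACC) occurred in the representative transcripts of 3 of the 80 genes, Rpl3, Rpl8 and Rps28. Those complementary to the seed of miR-501-3p (GGTGCAT) occurred in 3 others, Rpl15, Rpl24 and Rps20. All of these lay in the coding sequence except the match in Rps20, which lay in the annotated 3′ UTR of a 3706-base transcript. The matches in Rpl15, the gene that rose most, and in Rpl8 (capitals) are shown with 10 bases on either side, as read from GENCODE M21 transcripts on mm10, at bases 140 to 146 of Rpl15 and 682 to 688 of Rpl8.
Rpl15: agccaagatgGGTGCATacaagtacat
Rpl8: ctttggaggtGGTAACCaccagcacat
Among transcripts between 523.75 and 980.75 bases, the middle 50% of the family, 1 of 40 ribosomal protein genes (2.5%) held the miR-409-5p match, against 11 of 631 tested protein-coding genes (1.74%). For miR-501-3p these numbers were 2 of 40 (5%) against 25 of 631 (3.96%). The 631 include the tested ribosomal protein genes of that length, and the 40 were not limited to tested genes. Transcripts of the family and of other genes were chosen by unlike rules, given with the processing below. A match of letters is a description of the transcript and not evidence of binding.

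The control libraries stood apart from the anti-miR libraries in a property of all genes. The slope of a gene's log2 deviation on its GC content was -0.04 ± 0.07 log2 units per 10 percentage points of GC in anti-miR-409-5p libraries and -0.08 ± 0.06 in anti-miR-501-3p libraries (SD, n = 4 each), against 0.24 ± 0.05 in control (SD, n = 2). Mitochondrial transcripts took 3.63% ± 0.17 and 3.69% ± 0.27 of counts in these anti-miR groups and 2.68% ± 0.13 in control. Summed levels of 12 neuron markers lay between 10020 and 10389 CPM (counts scaled to library size) in the anti-miR-409-5p group, between 9860 and 10480 CPM in the anti-miR-501-3p group and between 9800 and 9819 CPM in control. Those of 8 astrocyte markers ranged over 4628 to 4887, 4451 to 4669 and 4211 to 4308 CPM in the same order of groups, with 1 and 3 of them called lower and 4 and 3 called higher under the anti-miRs. Of the neuron markers, 4 and 4 were called lower and 6 and 5 called higher. The lists of 8 oligodendrocyte-lineage markers (420 to 520, 351 to 500 and 456 to 636 CPM), 10 endothelial, mural and fibroblast markers (235 to 306, 297 to 362 and 253 to 355 CPM) and 8 markers of proliferating cells (240 to 286, 194 to 262 and 213 to 286 CPM) overlapped with control in both anti-miR groups, and no marker was at 0 in all libraries. Of 8 microglia markers, Cx3cr1, P2ry12, Itgam and Trem2 failed the filter, and the list summed to 13.7 to 18.2 CPM. The part of these differences in the results below was not tested, except for GC content.

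Measured levels differed widely between ribosomal protein genes, and genes whose transcripts have copies elsewhere in the annotation were measured at lower levels. The family is known for its many processed pseudogenes, and 276 annotated loci carried a ribosomal protein symbol with the ending -ps. In the median gene, 56.5% of all 50-base windows of the representative transcript also occurred in a transcript of another gene, with a range of 0 to 98.6%. Rps27 stood at the top of that range, since it shares nearly all of its windows with Rps27rt. Per kilobase of representative transcript, the mean level over the 10 libraries was highest for Rpl22 (256 CPM per kb), Rpl4 (246) and Rpl8 (245), and among the 77 tested genes it was lowest for Rpl23a (0.798), Rpl19 (1.08) and Rpsa (1.17). The order depends on the transcript chosen, which has 474 bases in Rpl22. Not divided by length, the means of Rpl22, Rpl4 and Rpl8 were 121, 378 and 208 CPM. Windows shared by Rpl22, Rpl4 and Rpl8 came to 24.5%, 16.5% and 7.86%, against 85.7%, 79.3% and 53.7% in Rpl23a, Rpl19 and Rpsa.

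Across the 77 tested genes, the shared percentage and the log2 level per kb ran against each other (Spearman's rho = -0.57, Pearson's r = -0.57, across genes of the same libraries, which are not independent). Genes with at most 25% of shared windows had a median of 121 CPM (n = 9), those of 25 to 50% had 31.4 CPM (n = 18), those of 50 to 75% had 12.0 CPM (n = 23) and those above 75% had 4.47 CPM (n = 27). Rpl15 was the most abundant gene of the last class at 77.5 CPM. Reads that map to several places may or may not have been counted, which is not given in the sources used here, so the levels of genes with close copies are uncertain. All groups were counted in the same way, but whether reads of copies enter the differences between groups was not tested. The 5 genes of most counts, with Rpl4 first, held 42.5% of the counts of the family. The -ps loci held 1.63 to 1.79% as many counts as the 80 genes, in every library.

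**Figure D1:**
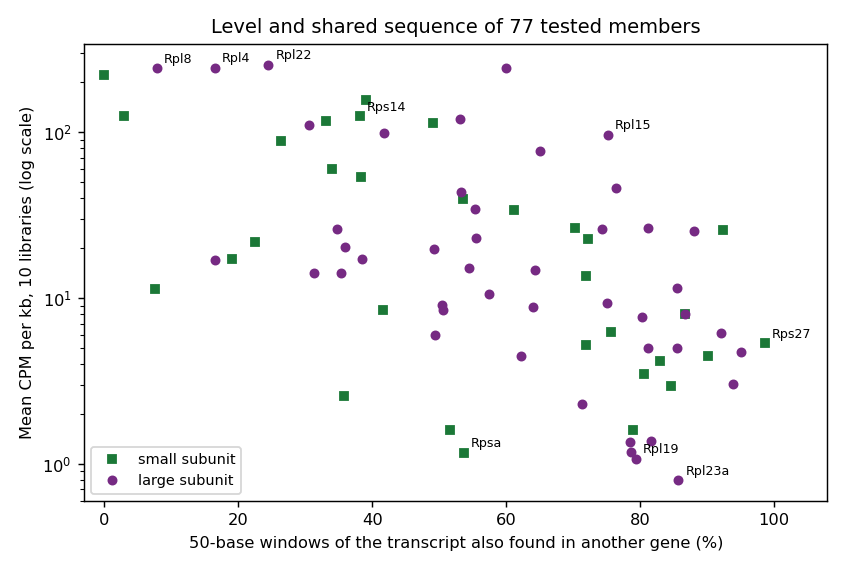
Mean level per kilobase (log scale, 10 libraries) of each of the 77 tested ribosomal protein genes against the percentage of its transcript's 50-base windows that occur in another gene, with squares for the small and circles for the large subunit. Genes with few shared windows, such as Rpl8 and Rpl4, lie at 245 and 246 CPM per kb, and Rpl23a, with 85.7% shared, is the lowest of the genes plotted at 0.798.

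Ribosomal protein genes took a smaller part of the counts under both anti-miRs. The 80 genes held 0.268%, 0.266%, 0.258% and 0.242% of all counts in the anti-miR-409-5p libraries, numbered from 1 to 4, while the anti-miR-501-3p libraries held 0.269%, 0.253%, 0.253% and 0.248%, against 0.307% and 0.290% in control libraries 1 and 2. Every anti-miR library lay below both control libraries. The means were 0.258% ± 0.0118 (SD, n = 4), 0.256% ± 0.00890 (SD, n = 4) and 0.299% ± 0.0122 (SD, n = 2), in the order anti-miR-409-5p, anti-miR-501-3p and control. Behind each share stood 57456 to 85020 counts, so that its 95% Wilson interval reached at most 0.00211 percentage points to either side, for counting error only. Both subunits showed it, with 0.103% and 0.101% under the anti-miRs and 0.123% in control for the small subunit, and 0.155%, 0.155% and 0.175% for the large subunit.

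**Figure D2:**
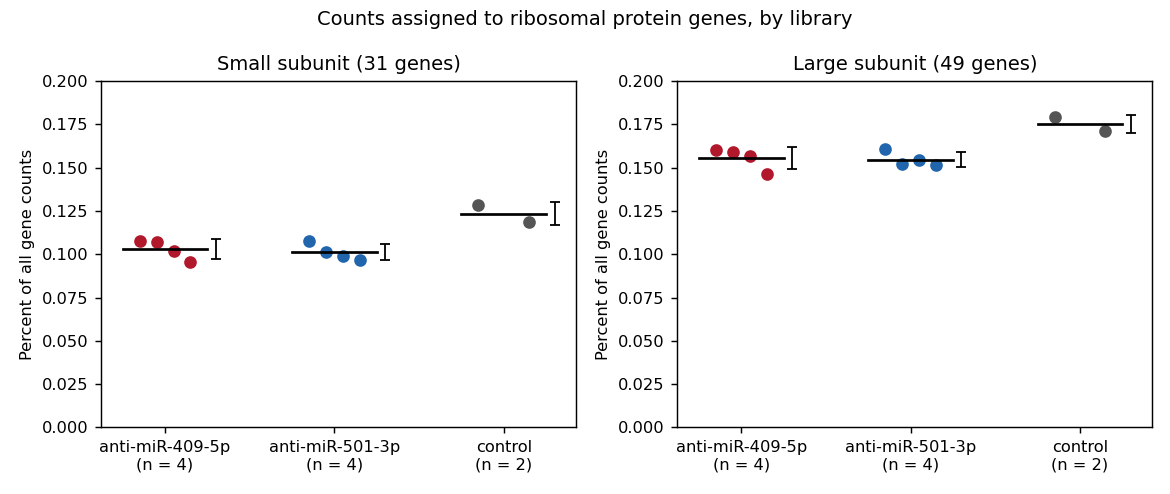
Percentage of all gene counts assigned to the small and large subunit genes in each library (points), with the group mean (line) and SD (bar). In both panels all 8 anti-miR libraries lie below the control libraries, which average 0.123% for the small and 0.175% for the large subunit.

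Under anti-miR-409-5p, 23 ribosomal protein genes fell and 1, Rpl15, rose, while 53 did not pass the test (edgeR's quasi-likelihood test, two-sided, Benjamini-Hochberg adjusted p of 0.05 over all 16884 tested genes). The 23 are 29.9% of the tested members, and 12.2% of all tested genes were called lower in this comparison, 15.6% higher and 27.8% in either direction. The median log2 fold change was -0.16 in the family and -0.01 over all tested genes, and 59 of the 77 values were below 0. In 31 genes (40.3%) every anti-miR library lay below both controls, as it did in 24.0% of all tested genes, and in 5 genes every anti-miR library lay above both, as it did in 24.1%. Of the small subunit, 10 of 31 genes fell and none rose, and of the large subunit 13 of 46 fell and 1 rose. The falls rested on control library 1, without which their calls were lost and the family's median was -0.10. Without control library 2 the median was -0.19, and either fit leaves 1 control library. Of all called genes, 43.9% were lower, and 59.4% with scaling by total counts. Under that scaling 29 ribosomal protein genes fell and 1 rose, while 3209 of all 16884 tested genes fell and 2193 rose.

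Under anti-miR-501-3p, 32 ribosomal protein genes fell, Rpl15 and Rpl5 rose, and 43 did not pass the same test. These falls make up 41.6% of the tested members, against 15.4% of all tested genes called lower, 17.6% called higher and 33.0% called in either direction. The family's median log2 fold change was -0.21, against -0.01 over all tested genes, with 63 of 77 values below 0. All 4 anti-miR libraries lay below both controls in 42 genes (54.5%), against 25.6% of all tested genes, and above both in 2, against 24.3%. The small subunit had 13 of 31 genes lower and none higher, and the large subunit 19 of 46 lower and 2 higher. Without control library 1 the falls lost their calls except Rpl14 and Rps19, with a median of -0.14 in the family. Without control library 2 the median was -0.22. The lower genes made up 46.7% of all calls, and 60.6% with scaling by total counts. Under that scaling 35 ribosomal protein genes fell and 1 rose, while 3779 of all tested genes fell and 2452 rose. Both comparisons use the same 2 control libraries, so their calls are not independent of each other.

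**Figure D3:**
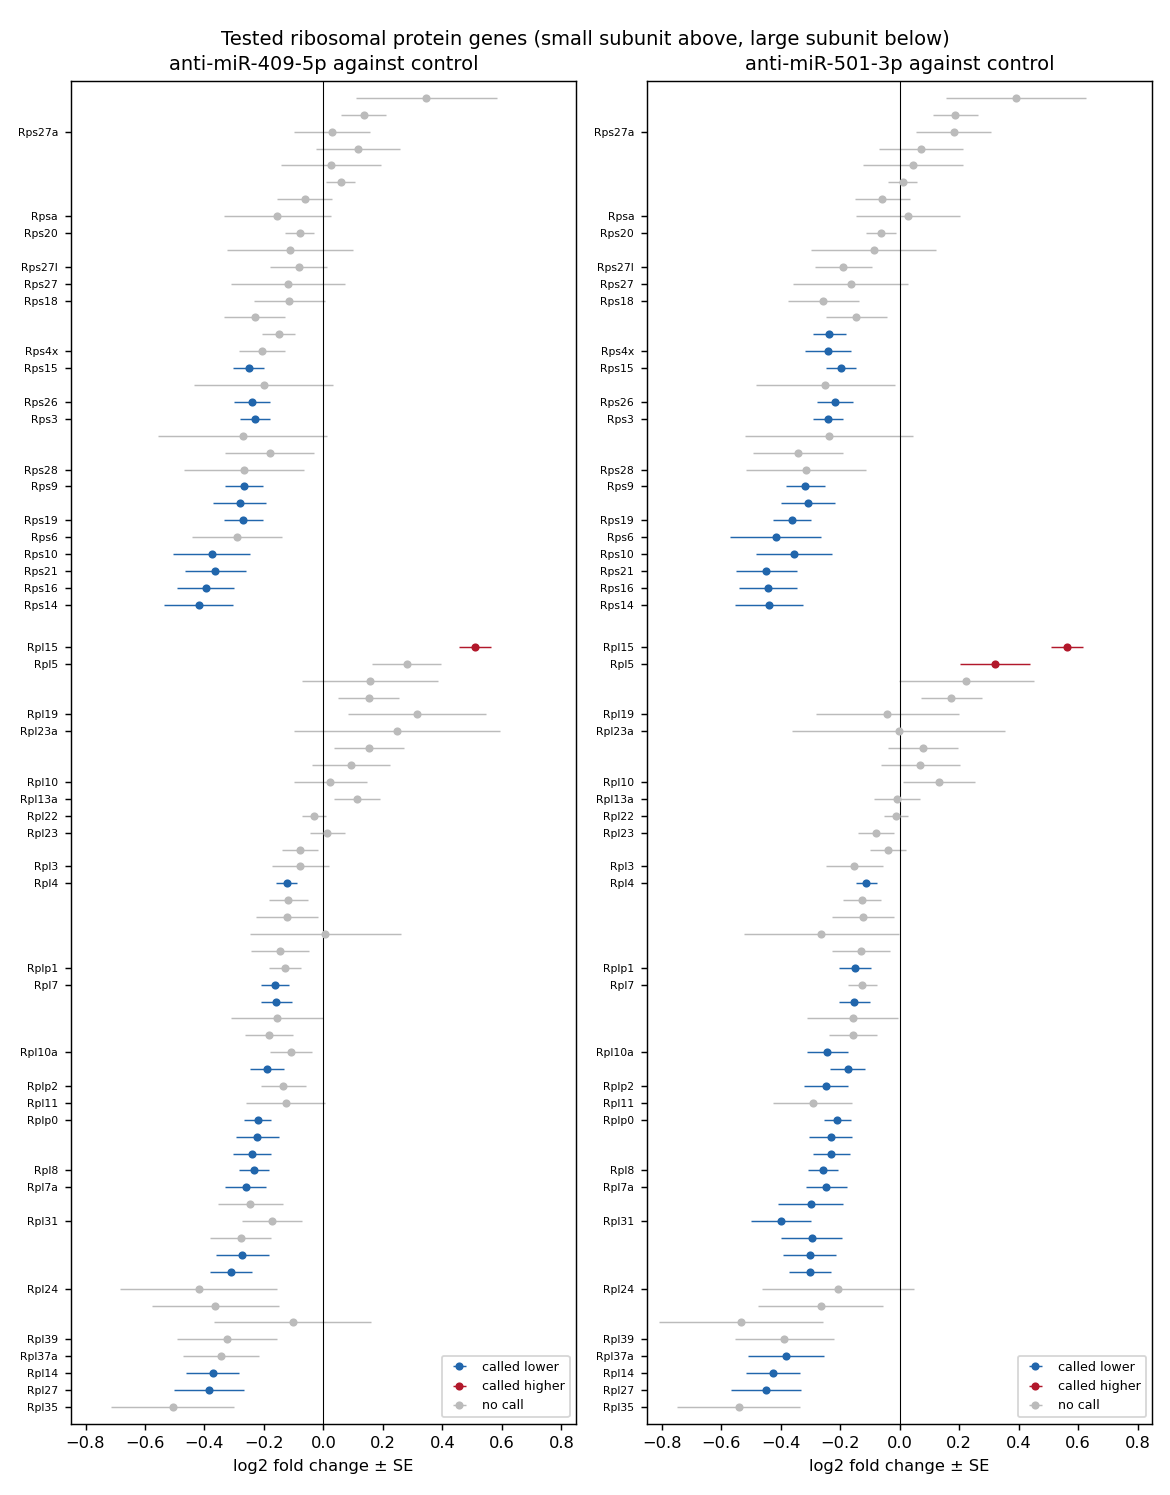
Log2 fold change (points) and standard error (bars) of each tested ribosomal protein gene under anti-miR-409-5p (left) and anti-miR-501-3p (right) against control, small subunit above and large subunit below, coloured by the call of edgeR, with symbols for genes named in the text. Rpl15 stands alone on the right at 0.51 and 0.56, and 23 and 32 genes are called on the left of 0.

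Among small subunit genes, those with the largest falls under anti-miR-409-5p included Rps14, Rps16, Rps10 and Rps21, and under anti-miR-501-3p Rps21, Rps16, Rps14 and Rps6. Rps16, a protein of the head of the small subunit near the decoding site, had 7.59, 8.90, 9.67 and 9.54 CPM under anti-miR-409-5p and 8.51, 8.25, 9.10 and 8.68 CPM under anti-miR-501-3p, against 12.7 and 10.8 CPM in control. The groups did not overlap, and the log2 fold changes were -0.40 ± 0.10 and -0.44 ± 0.10 (SE; edgeR adjusted p = 0.00586 and 0.00212). Rps14, a protein of the platform of the small subunit and the gene whose loss underlies a human macrocytic anaemia, had 75.9, 77.5, 67.5 and 60.6 CPM under anti-miR-409-5p and 78.0, 71.7, 68.5 and 59.5 CPM under anti-miR-501-3p, against 98.1 and 90.3 CPM in control. Again no anti-miR library reached the controls (log2 fold changes -0.42 ± 0.12 and -0.44 ± 0.12, SE; edgeR adjusted p = 0.0248 and 0.0166).

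Rps21, among the smallest proteins of the subunit, had 37.3, 36.3, 31.7 and 30.4 CPM under anti-miR-409-5p and 36.3, 33.2, 31.2 and 27.4 CPM under anti-miR-501-3p, against 45.1 and 42.2 CPM in control (log2 fold changes -0.36 ± 0.10 and -0.45 ± 0.10, SE; edgeR adjusted p = 0.0218 and 0.00615). Libraries 3 and 4 were the lowest of each anti-miR group in Rps14 and Rps21. Rps10 fell by 0.38 ± 0.13 and 0.36 ± 0.13 on the log2 scale (SE; edgeR adjusted p = 0.0424 and 0.0458), and 90.6% of its windows are also annotated in the readthrough gene RPS10-NUDT3.

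None of these small subunit calls held without control library 1, when their edgeR adjusted p ran between 0.191 and 0.246 under anti-miR-409-5p and between 0.0930 and 0.251 under anti-miR-501-3p. Under anti-miR-409-5p the calls of Rps14 and Rps21 were also lost without control library 2 (adjusted p = 0.0621 and 0.0582) or without anti-miR-409-5p library 3 (0.0629 and 0.0566). That of Rps10 was lost in 6 of the 10 fits with 1 library left out in each comparison (adjusted p of edgeR between 0.0525 and 0.251). Other small subunit genes that fell in both comparisons, named after their values were seen, were Rps3, Rps9, Rps15, Rps19 and Rps26, with log2 fold changes between -0.36 and -0.20. Rps19, mutated in human Diamond-Blackfan anaemia, had -0.27 ± 0.06 and -0.36 ± 0.06 (SE; edgeR adjusted p = 0.00555 and 0.000504) and was 1 of the 2 falls under anti-miR-501-3p that held without control library 1 (0.0298), but both calls were lost with the GC and length correction described below (-0.03 and -0.11; 0.816 and 0.242). The other 4 lost both calls without control library 1 (adjusted p of edgeR between 0.0775 and 0.207), Rps26 under anti-miR-501-3p also without control library 2 (0.0585).

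Rps6, the small subunit protein that S6 kinases phosphorylate, was measured at a low level, with 84.6% of its windows found elsewhere. It had 2.5, 3.15, 2.41 and 2.22 CPM under anti-miR-409-5p and 2.47, 2.61, 2.22 and 2.14 CPM under anti-miR-501-3p, against 3.24 and 3.07 CPM in control. It fell under anti-miR-501-3p, where the groups did not overlap (log2 fold change -0.42 ± 0.15, SE; edgeR adjusted p = 0.0435), and did not pass the test under anti-miR-409-5p, where library 2 lay between the controls (-0.29 ± 0.15; adjusted p = 0.167). The call was lost in 6 of the 10 fits that left out 1 library (adjusted p of 0.0517 to 0.252), and with the replicate number as a block (-0.29; edgeR adjusted p = 0.149). Rpsa, the laminin receptor precursor that sits near the exit of the messenger RNA channel, averaged 1.72 CPM under anti-miR-409-5p and 1.97 CPM under anti-miR-501-3p, against 1.93 CPM in control, and passed no test (edgeR adjusted p = 0.565 and 0.922). Rps27a, which is made as a fusion with ubiquitin, passed no test at 0.03 ± 0.13 and 0.18 ± 0.13 on the log2 scale (SE; edgeR adjusted p = 0.896 and 0.297).

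In the large subunit, the largest falls called in both comparisons were those of Rpl27 and Rpl14. Rpl14 had 21.7, 20.1, 17.4 and 16.6 CPM under anti-miR-409-5p and 18, 19.1, 19.3 and 16.8 CPM under anti-miR-501-3p, against 24.0 and 25.2 CPM in control. The groups were separate (log2 fold changes -0.37 ± 0.09 and -0.43 ± 0.09, SE; edgeR adjusted p = 0.00576 and 0.00179). The second call held in each of the 10 fits with 1 library left out (adjusted p of at most 0.0259), and the first missed the threshold without control library 1 (0.0509) or 2 (0.0616). Rpl27 had 5.79, 5.43, 4.72 and 4.91 CPM under anti-miR-409-5p and 5.91, 4.96, 4.36 and 4.75 CPM under anti-miR-501-3p, against 7.22 and 6.45 CPM in control. It also did not overlap (log2 fold changes -0.39 ± 0.12 and -0.45 ± 0.12, SE; edgeR adjusted p = 0.0221 and 0.00766), and without control library 1 both calls were lost (0.262 and 0.151), the first of them also without anti-miR-409-5p library 3 (0.0622) or 4 (0.0588).

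Rpl31, next to the exit of the peptide tunnel, had 4.71, 4.64, 4.49 and 4.88 CPM under anti-miR-409-5p and 4.27, 4.04, 3.83 and 3.90 CPM under anti-miR-501-3p, against 5.37 and 5.21 CPM in control. It was called under anti-miR-501-3p (-0.40 ± 0.10, SE; edgeR adjusted p = 0.00615, and 0.0898 without control library 1) and not under anti-miR-409-5p (-0.17 ± 0.10; 0.211). Rpl37a fell under anti-miR-501-3p (-0.38 ± 0.13, SE; edgeR adjusted p = 0.0321) in a call lost in 5 of the 10 fits with 1 library left out (0.0641 to 0.253). The abundant Rpl8, near the peptidyl transferase centre, had 214, 211, 194 and 191 CPM under anti-miR-409-5p and 210, 197, 202 and 188 CPM under anti-miR-501-3p, against 244 and 232 CPM in control (log2 fold changes -0.23 ± 0.05 and -0.26 ± 0.05, SE; edgeR adjusted p = 0.00299 and 0.00103, and 0.103 and 0.0535 without control library 1). Rpl4, which lines the peptide tunnel and has the most counts of the family, fell by 0.12 ± 0.04 and 0.11 ± 0.04 on the log2 scale (SE; edgeR adjusted p = 0.0156 and 0.0219), calls lost without control library 1 (0.201 and 0.235) or 2 (0.0739 and 0.0866), and the second also without anti-miR-501-3p library 2 (0.0839) or 3 (0.0539).

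The largest log2 fold changes below 0 in the family belonged to Rpl35, at the exit of the peptide tunnel, but with wide errors they were not called (-0.51 ± 0.21 and -0.54 ± 0.21, SE; edgeR adjusted p = 0.0878 and 0.0621).

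Rpl22, an RNA-binding protein that mice can live without, had the highest level per kb of representative transcript. It had 120, 123, 123 and 114 CPM under anti-miR-409-5p and 122, 120, 124 and 121 CPM under anti-miR-501-3p, against 123 and 122 CPM in control. Its groups overlapped, and the log2 differences came to -0.03 ± 0.04 and -0.01 ± 0.04 (SE; edgeR adjusted p = 0.597 and 0.871).

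Rpl15 was the sole ribosomal protein gene that rose in both comparisons. It encodes a large subunit protein needed for pre-ribosomal RNA processing, and lies at chr14:18267823-18271391 on the minus strand of mm10. It had 76.5, 82.4, 85.1 and 80.4 CPM under anti-miR-409-5p and 80.7, 85.3, 87.3 and 83.2 CPM under anti-miR-501-3p, against 53.8 and 60.1 CPM in control. All 8 anti-miR libraries lay above both controls, by 0.51 ± 0.05 and 0.56 ± 0.05 on the log2 scale (SE; edgeR adjusted p = 1.61e-05 and 3.38e-06). Leaving out 1 library at a time kept the call in all 10 fits of each comparison (adjusted p of at most 0.00207 and 0.000511), with log2 fold changes between 0.45 and 0.65. A fit corrected for GC content and length gave 0.66 and 0.72 (edgeR adjusted p = 3.56e-05 and 1.19e-05). Of its windows, 75.2% also occur elsewhere, the largest part in the pseudogene Rpl15-ps3, so reads of this gene and its copies may not be told apart.

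**Figure D4:**
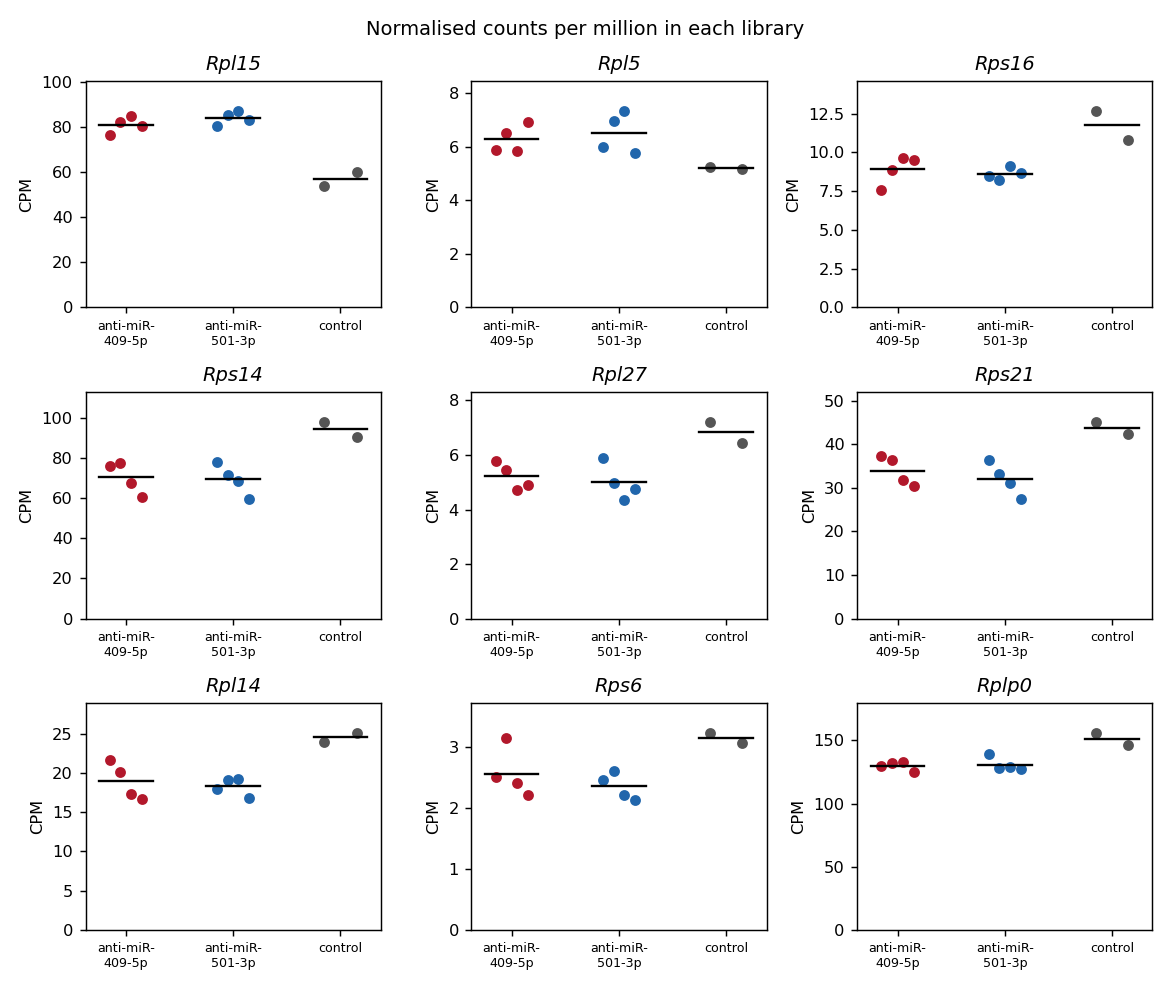
Normalised CPM in each library (points) with group means (lines) for 9 ribosomal protein genes, each axis starting at 0. Rpl15 lies at 76.5 to 87.3 CPM in the 8 anti-miR libraries and at 53.8 and 60.1 CPM in control, while Rps16, Rps14, Rpl27, Rps21, Rpl14 and Rplp0 lie lower under both anti-miRs than in either control library.

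Rpl5 and Rpl11, which join the ribosome with the small RNA of the central protuberance and bind Mdm2 when free, were measured at low levels. Rpl5 had 5.87, 6.51, 5.85 and 6.91 CPM under anti-miR-409-5p and 5.98, 6.96, 7.34 and 5.76 CPM under anti-miR-501-3p, against 5.23 and 5.18 CPM in control. All anti-miR libraries were above both controls, but the difference was called only under anti-miR-501-3p (log2 fold change 0.32 ± 0.12, SE; edgeR adjusted p = 0.0411) and not under anti-miR-409-5p (0.28 ± 0.12; 0.0822). The call was lost without either control library (0.166 and 0.144) or without anti-miR-501-3p library 2 (0.0916) or 3 (0.108), with DESeq2 (0.0628), with upper-quartile (0.0681) or total-count scaling (0.0720) and with 1 surrogate variable (0.109), and with the GC and length trend removed the value was 0.09 (0.731). At 42.7% its transcript has a low GC content, 93.8% of its windows occur elsewhere, and 45.3% occur in the overlapping gene Fam69a. Rpl11 passed no test at -0.13 ± 0.13 and -0.29 ± 0.13 on the log2 scale (SE; edgeR adjusted p = 0.513 and 0.102).

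The stalk of the large subunit, which recruits the elongation factors, is built from Rplp0 and the pair Rplp1 and Rplp2. Rplp0 had 130, 132, 133 and 125 CPM under anti-miR-409-5p and 139, 129, 129 and 127 CPM under anti-miR-501-3p, against 156 and 147 CPM in control. It fell in both comparisons without overlap (log2 fold changes -0.22 ± 0.04 and -0.21 ± 0.04, SE; edgeR adjusted p = 0.00181 and 0.00186), with calls lost without control library 1 (0.0929 and 0.0953). Rplp1 had 116, 120, 129 and 115 CPM and 125, 113, 115 and 120 CPM under these anti-miRs, against 138 and 124 CPM in control, and overlapped with control in both comparisons. It was called under anti-miR-501-3p alone (-0.15 ± 0.05, SE; edgeR adjusted p = 0.0368, lost in 5 of 10 fits with 1 library left out, 0.0631 to 0.588), against -0.13 ± 0.05 (0.0799) under anti-miR-409-5p. Rplp2 likewise fell under anti-miR-501-3p (-0.25 ± 0.07, SE; edgeR adjusted p = 0.0174) and did not pass under anti-miR-409-5p (-0.13 ± 0.07; 0.194), and its call was lost without control library 1 (0.451) or anti-miR-501-3p library 2 (0.0636).

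Tissue-restricted paralogues were near or below detection. Rpl10l, which replaces Rpl10 in male germ cells, had 0 counts in each library, which allows up to 0.0950 to 0.136 CPM (3 counts per library). Rpl39l, of male germ cells as well, had 0 to 4 counts per library, and Rpl3l, of heart and skeletal muscle, 2 to 9, and neither passed the filter. Their ubiquitous partners Rpl10, Rpl39 and Rpl3 averaged 4.91, 10.3 and 6.75 CPM over the 10 libraries and passed no test in either comparison. Their log2 fold changes, for anti-miR-409-5p first, were 0.02 ± 0.12 and 0.13 ± 0.12 for Rpl10, -0.32 ± 0.17 and -0.39 ± 0.17 for Rpl39 and -0.08 ± 0.10 and -0.15 ± 0.10 for Rpl3 (SE). Rps27 and its p53-responsive paralogue Rps27l passed no test either (edgeR adjusted p between 0.144 and 0.692), though Rps27l gained a call with the GC and length correction described below. Rps4x, the X-linked partner of the pseudogene Rps4l, fell under anti-miR-501-3p (-0.24 ± 0.08, SE; edgeR adjusted p = 0.0233) and not under anti-miR-409-5p (-0.21 ± 0.08; 0.0547), with the call lost without control library 1 (0.236) or 2 (0.0608) or anti-miR-501-3p library 4 (0.0754). With the replicate number as a block it was called under anti-miR-409-5p as well (-0.19; edgeR adjusted p = 0.0229).

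Between the anti-miRs, no ribosomal protein gene was called. The background was 0.0% as well, since edgeR called 0 of 16884 genes, with 992 genes and 2 ribosomal protein genes at an unadjusted p under 0.05, while DESeq2 called 3 genes, none of the family. The median log2 fold change of anti-miR-409-5p over anti-miR-501-3p was 0.02 in the family and -0.00 over all tested genes, with a median SE of 0.08. The smallest p belonged to Rpl31 (0.22 ± 0.09, SE; edgeR adjusted p = 0.833), followed by Rpl10a (0.13 ± 0.06; 0.845), Rpl13a (0.12 ± 0.06; 0.871) and Rpl23 (0.09 ± 0.05; 0.871). The groups did not overlap in 2 ribosomal protein genes higher under anti-miR-409-5p, Rpl31 and Rps18, and in 1 lower, Rps27a, against 1.66% and 1.81% of all tested genes. With the replicate number as a block, 252 genes were called and none of them was a ribosomal protein gene.

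The falls were larger in GC-rich ribosomal protein genes, as for genes at large. Across the 77 genes, GC content and log2 fold change had a Spearman's rho of -0.42 under anti-miR-409-5p and -0.44 under anti-miR-501-3p, and over 16839 tested genes it was -0.71 in both. Above the family's median of 51.8% GC, 15 and 22 of 38 genes fell, against 8 and 10 of 39 at or below it. Set against the median of all tested genes in the same 2-point bin of GC content, 56 and 59 of the 77 genes lay lower, by a median of 0.09 and 0.11 log2 units. The transcripts behind these GC contents were chosen by unlike rules, the shortest candidate for the family and the longest for other genes. What this choice does to the bins and to the correction that follows was not tested. With the trend on GC content and length removed in each library, the family's median was -0.07 and -0.08, and 7 and 12 genes fell while 2 and 1 rose, with 6 of the 23 and 9 of the 32 falls kept. These falls are 9.09% and 15.6% of the members, and of all tested genes that fit called 2.27% lower and 3.62% higher under anti-miR-409-5p, and 3.1% lower and 4.87% higher under anti-miR-501-3p. Of the calls given above, those of Rps10, Rps14, Rps15, Rps19, Rpl8, Rpl27 and Rplp0 were lost in both comparisons, those of Rps9 and Rps21 under anti-miR-409-5p, and those of Rps6, Rpl5, Rpl31, Rpl37a, Rplp1 and Rplp2 under anti-miR-501-3p. Rps3, Rps16, Rps26, Rpl4 and Rpl14 were lower in both comparisons before the correction and in that fit. Rpl7 was also lower in both there, but its call under anti-miR-501-3p was gained (edgeR adjusted p = 0.0526 before, 0.00291 after). That fit also called Rpl13a higher under anti-miR-409-5p (log2 fold change 0.26, edgeR adjusted p = 0.0323). It called Rps27l lower under anti-miR-501-3p (-0.30, edgeR adjusted p = 0.0488). Rps20 gained both calls there, from -0.08 and -0.06 (0.243 and 0.36) to -0.38 and -0.40 (7.37e-05 and 2.07e-05). Its representative transcript has 3706 bases and 41.3% GC, the longest and most GC-poor of the tested members, whose medians were 681 bases and 51.8%. The correction of Rps20 rests on this transcript, and a shorter one was not tried. Its gained calls, which are among the 7 and 12 falls, therefore depend on that choice. Under anti-miR-501-3p the values of Rplp1, Rps15, Rplp0 and Rpl8 in that fit were 0.06, 0.02, -0.08 and -0.03 (edgeR adjusted p = 0.65, 0.881, 0.161 and 0.657).

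**Figure D5:**
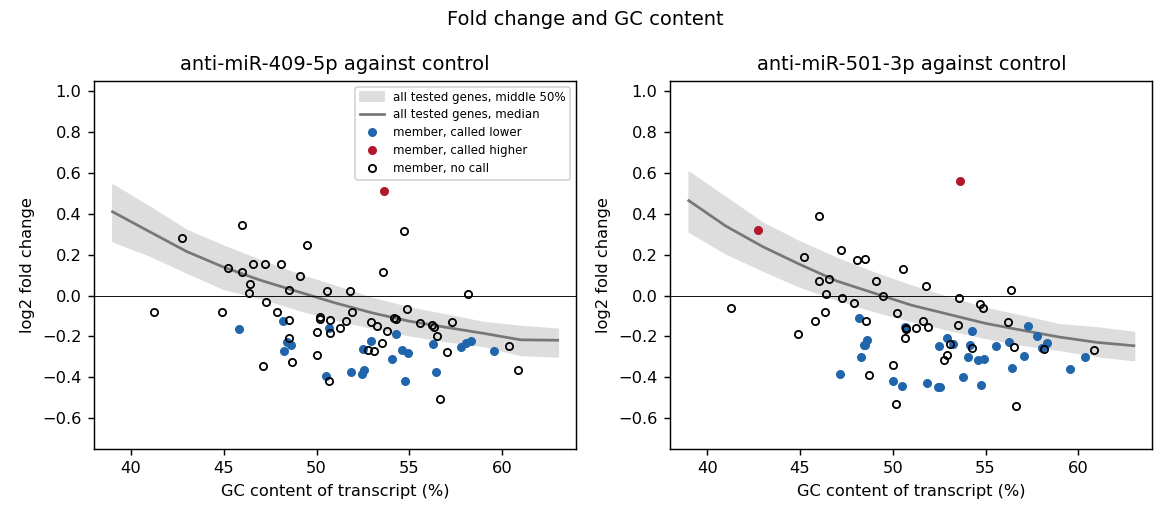
Log2 fold change of the 77 tested ribosomal protein genes (circles, coloured by call) against the GC content of their transcripts, over the median (line) and middle 50% (band) of all tested genes in 2-point bins. In both panels most circles lie under the line, 56 on the left and 59 on the right, and Rpl15 lies far above it.

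The start of these genes was read from RefSeq windows of 250 bases before and 50 bases after the annotated start, which exist for 60 of the 80 genes. CTTTC or CTTCC, letters of the terminal oligopyrimidine motif that can overlap each other, stood within 25 bases of the start on the gene's strand in 28 of 60 (46.7%), against 16.6% of 27025 promoters. On the other strand the share was 28.3%, against 17%. CCGGAA, on either strand of the 300 bases, stood in 50.0% against 15.2%, and TATAAA in 8.33% against 14.2%. Of tested genes with a window, 5 of 16 that fell under anti-miR-409-5p held CTTTC or CTTCC and 21 of 40 without a call, against 10 of 24 and 15 of 31 under anti-miR-501-3p. The starts of Rpl15, which rose, and of 5 genes that fell in both comparisons are shown from 20 bases before to 10 bases from the annotated start, with CTTTC and CTTCC in capitals (GRCm38.p6, at chr14:18270977-18271006 on the minus strand, chr7:28350669-28350698, chr9:120571497-120571526, chr11:101442225-101442254, chr9:64173367-64173396 and chr2:26910787-26910816 on the plus strand).
Rpl15: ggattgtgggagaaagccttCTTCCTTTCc
Rps16: taaagcccgcttctgtcgtgacgtagcact
Rpl14: cggcagggcgggccctctctcttctcgctg
Rpl27: ccggaacgctctgttcctgtctgctgctcg
Rpl4: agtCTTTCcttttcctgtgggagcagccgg
Rpl7a: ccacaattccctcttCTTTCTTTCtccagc
The letters stand right at the annotated start in Rpl15, run across it in Rpl7a, stand upstream of it in Rpl4, and not within these 30 bases in Rps16, Rpl14 and Rpl27. They do not mark every run of pyrimidines, since an unbroken run of C and T crosses the annotated start in Rpl14, as in Rpl15 and Rpl7a. An annotated start need not be the start used in these neurons. Rpl7a, a large subunit protein chosen here after its values were seen, fell by 0.26 ± 0.07 and 0.25 ± 0.07 on the log2 scale (SE; edgeR adjusted p = 0.0103 and 0.0112), calls lost without control library 1 (0.162 and 0.169) and with the GC and length correction (0.253 and 0.282).

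The lists of genes that work with the ribosomal proteins are given by their counts, to be set beside the 12.2% of all tested genes called lower and 15.6% called higher under anti-miR-409-5p, and the 15.4% and 17.6% under anti-miR-501-3p. Of 7 ribosomal components outside the symbol rule, 3 fell in both comparisons, among them Rack1 and Fau, and none rose. Rack1, the scaffold on the head of the small subunit, averaged 246 ± 14.4 CPM under anti-miR-409-5p and 242 ± 12.8 CPM under anti-miR-501-3p (SD, n = 4 each), against 284 ± 15.4 CPM in control (SD, n = 2), a log2 difference of -0.21 and -0.23 (edgeR adjusted p = 0.0103 and 0.00408, and 0.235 and 0.141 without control library 1). Rpl22l1, the paralogue of Rpl22, had 0.14 and 0.16 and passed no test, like Rps3a1, Rpl7l1 and Rpl36al. Of 43 translation factors, 13 fell and 9 rose under anti-miR-409-5p and 14 fell and 11 rose under anti-miR-501-3p, with the cap-binding Eif4e (0.39 and 0.47) and the start-site factor Eif1a (0.39 and 0.49) at the smallest p (edgeR adjusted p of at most 0.0001). Of 61 ribosome biogenesis genes, 10 fell and 7 rose, and 16 fell and 8 rose, in the same order of comparisons, with Npm1 (0.32 and 0.38) and the large subunit's export adaptor Nmd3 (0.28 and 0.30) among the risers.

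Of 25 genes of the mTOR and pyrimidine-motif control list, 7 fell and 8 rose, and 9 fell and 8 rose, among them Rps6kb1, which encodes an S6 kinase (0.43 and 0.42), Rps6ka3 (0.39 under anti-miR-409-5p) and Rps6ka6 (0.57 under anti-miR-501-3p). In the 12 host genes of small nucleolar RNAs, Snhg8 (-0.36 and -0.45) and Snhg20 (-0.26 and -0.27, lost with the replicate block at edgeR adjusted p = 0.0904 and 0.0579) fell and none rose. Of 6 tested chaperones of ribosomal proteins, 1 and 2 fell, of 17 ribosome quality-control genes 3 and 7 fell and 2 and 1 rose, and of 11 genes of the p53 response to ribosome stress 2 and 3 fell and 2 and 2 rose. Named from these lists by smallest p, Aamp had -0.19 and -0.21, Grwd1 -0.14 (not called) and -0.20 (lost with the replicate block, edgeR adjusted p = 0.113), Ltn1 0.24 and 0.23, Rnf10 -0.17 and -0.20, Mdm4 0.29 and 0.28 and Ccng1 0.25 and 0.36. Without control library 1, the calls of the list genes named here that fell were lost (edgeR adjusted p between 0.111 and 0.391), and those of the named risers held except that of Ccng1 under anti-miR-409-5p (0.0699). The medians of these 8 lists lay between -0.20 and -0.02 under anti-miR-409-5p and between -0.15 and -0.01 under anti-miR-501-3p, against -0.01 over all tested genes in both. The risers named here have transcripts of 38.9 to 43.3% GC. In the fit corrected for GC content and length their log2 values ran from -0.22 to 0.15, where Npm1 was higher under anti-miR-501-3p (0.15; edgeR adjusted p = 0.0195) and Nmd3 was lower in both comparisons (-0.19 and -0.22; 0.0447 and 0.0122). Of the named genes that fell, Fau, Aamp, Rnf10, Snhg20 and Grwd1 lost their calls in that fit (-0.11 to -0.01; edgeR adjusted p between 0.397 and 0.935). Rack1 lost its call under anti-miR-409-5p (-0.14; 0.0726) and kept it under anti-miR-501-3p (-0.17; 0.0214). Snhg8 kept both calls (-0.40 and -0.49; 0.0167 and 0.00241).

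In the authors' deposited tables of each anti-miR against control, 19 and 27 of the 78 ribosomal protein genes listed had a negative log2 fold change at an adjusted p of 0.05 or less, and 18 and 25 of these were also called lower here. In the authors' deposited tables, 10.8% and 14.1% of all genes with an adjusted p were lower by the same rule. The authors' deposited tables gave Rpl15 as the sole member higher in both, with log2 fold changes of 0.52 and 0.57, and held no adjusted p for 16 and 8 of the 78.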

How the data were processed

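Gene expression was measured in 10 libraries of cultured mouse hippocampal neurons, 4 per anti-miR and 2 for control. Per the labels' protocols, library preparation used TruSeq RNA v2 reagents, which do not mark strand. The tools named, per the submitters' processing notes, are STAR 2.5.2b, Subread 1.5.1 with featureCounts, and FastQC 0.11.5, and the build is mm10. The handling of reads that map to several places is not given in the sources used here. The deposited files hold raw counts per Ensembl gene, per library, with no normalization. The authors also deposited a table for each comparison with control, holding log2 fold changes and adjusted p-values, per the file headers. Only these comparison columns were used, and 12 columns of per-library values in the tables were not.

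Ensembl identifiers gave symbols for 48349 of 48709 genes. The counts were tested with edgeR 4.0.16 under R 4.3.3 (TMM scaling, filterByExpr, robust quasi-likelihood fit of all 10 libraries in 3 groups, two-sided, Benjamini-Hochberg adjusted p of 0.05 over all tested genes), and CPM are scaled by TMM. The script was tested on simulated data. Alternatives were DESeq2 1.42.0, upper-quartile and total-count scaling, no filter, only the groups compared, a replicate block, a GC and length offset (splines of 5 degrees of freedom), both of these, 1 surrogate variable (sva 3.50.0) and leaving out each library. Sequence windows, GC content and lengths came from a representative GENCODE M21 transcript per gene, a coding one of the best annotated rank where available. Among such candidates the shortest was taken for ribosomal protein genes. For other genes it was the longest of the best supported, so GC content and length are not measured alike in both. The deviations of same-numbered anti-miR libraries had a Pearson's r of 0.375, 0.164, 0.121 and 0.306 for numbers 1 to 4. Different-numbered anti-miR libraries had r between -0.333 and 0.177. These ranges overlap and no label states a pairing, so whether the numbers pair libraries is not settled. With 2 control libraries, their deviations mirror each other. Their same-numbered values (0.293 and 0.0425 with anti-miR-409-5p, 0.359 and 0.211 with anti-miR-501-3p) therefore cannot show a pairing.

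The members, lists and tests were chosen with earlier results of these data known. Named were up to 8 called members per direction and comparison by size of the fold change, the 3 highest and 3 lowest members per length, members that failed the filter, the 5 of smallest p in the direct comparison, paralogue pairs, a set of well-known members, and from each related list the 2 genes of smallest p, with ribosomal components outside the symbol rule. Some genes that this rule names are not reported here. Rps3, Rps9, Rps15, Rps18, Rps19, Rps20, Rps26, Rps28, Rpl7, Rpl7a, Rpl24 and Rpl35 were named after their values were seen.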

Additional observations from a re-analysis of the deposited data

Results flagged for a closer look

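Of 64 groups of 4 libraries tested, 2 held 1 value, each of a named ribosomal protein gene within an anti-miR group, that stood far from the rest of their group by Dixon's criterion, where chance gives about 1 in 20. Rplp0 had 139 CPM in anti-miR-501-3p library 1, against 127 to 129 CPM in the other libraries of the group. Rplp2 had 27.0 CPM in anti-miR-501-3p library 2, against 31.2 to 31.9 CPM in the others, and its call under anti-miR-501-3p was lost without that library (edgeR adjusted p = 0.0636).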

How the results depend on the processing

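With 2 control libraries, each comparison with control rests on few libraries, and the cause of the changes below was not tested. With the GC and length trend removed, 995 and 1345 genes and 9 and 13 ribosomal protein genes were called under anti-miR-409-5p and under anti-miR-501-3p, and the members' medians were -0.0682 and -0.0820. With the replicate block added to that correction these were 1046 and 1454 genes, 10 and 14 members and medians of -0.0577 and -0.0786. With 1 surrogate variable they were 1017 and 3637 genes, 4 and 16 members and medians of -0.0710 and -0.135. Leaving out 1 library gave 1302 to 5111 and 1800 to 6075 genes, 1 to 27 and 4 to 35 members, and medians of -0.19 to -0.10 and -0.22 to -0.14, the low counts without control library 1. Between the anti-miRs, where 0 genes were called, DESeq2 called 3, no filter 42, only the groups compared 1, the replicate block 252, the GC and length correction 2, that with the replicate block 182, and leaving out 1 library 0 to 1, with 0 members and member medians of -0.01 to 0.05.

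Some signs turned with the GC and length correction, to log2 fold changes for anti-miR-409-5p and then anti-miR-501-3p of -0.0811 and -0.0189 in Ccng1, -0.0157 and -0.0362 in Ltn1, -0.189 and -0.222 in Nmd3, -0.00689 and -0.0757 in Rps6kb1, and 0.0572 in Rplp1 and 0.0198 in Rps15 under anti-miR-501-3p. With the replicate block added they were -0.103 and -0.0407 in Ccng1, -0.00851 and -0.0302 in Ltn1, -0.151 and -0.185 in Nmd3, 0.00537 in Aamp under anti-miR-409-5p, and -0.0634 in Rps6kb1, 0.0126 in Rplp1 and 0.0108 in Grwd1 under anti-miR-501-3p. Of the values of single genes under alternatives, 2268 kept direction and call, 58 gained the call, 289 lost it and 20 turned. Without the block, DESeq2, the other scalings, no filter and only the groups compared gave 23 to 29 and 30 to 35 falls of members. Of all tested genes, 1670 to 3209 and 2180 to 3779 fell with DESeq2 and the other scalings. The shares of all genes for no filter, only the groups compared and the replicate block are not given here. The replicate block alone gave 26 and 33. Under anti-miR-501-3p it also gave calls to Rpl7 and Rps18 (edgeR adjusted p = 0.00449 and 0.0457), and besides the calls of Rps6, Rps4x, Snhg20 and Grwd1 given above it changed no other call of a gene named in the text.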
